A study of Macaca fascicularis with 22 samples.

Results

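Skeletal muscle of newborn cynomolgus macaques (Macaca fascicularis) was compared with the tissue labelled umbilical cord on single-colour Agilent arrays of the rhesus macaque. The comparison used all 8 arrays titled as biceps against all 8 titled as cord, 16 of the 22 arrays of the series, with birth weight group as a covariate. Each tissue had 4 arrays from neonates of average birth weight (ABW, 50 to 75th centile) and 4 from neonates of lower birth weight (LBW, 5 to 25th centile). The titles call these groups control and treated, but the labels name no treatment other than birth weight. The labels describe every donor as a neonate sampled at birth, whereas the methods place the collection of muscle some days after birth and the cord collection at delivery, so tissue and sampling age cannot be told apart. All neonates had the same sire. The methods name 8 neonates, so the tissues may share animals, but the labels do not tie a muscle array to a cord array of the same animal. The p-values therefore measure the spread between these arrays.

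A skeletal muscle fibre is filled with repeating sarcomeres, in which thin and thick filaments slide past each other when calcium binds troponin. Contraction starts at the motor endplate, passes along the sarcolemma and is fuelled by glucose and fatty acids oxidised in mitochondria. Umbilical cord consists of vessels embedded in a matrix rich in collagen and proteoglycans, under an epithelium of amnion. Hepatocytes, in contrast, secrete most plasma proteins and carry out urea synthesis, gluconeogenesis and the conjugation of drugs and bilirubin.

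The arrays labelled umbilical cord carried hepatocyte genes, so they are named here by their label alone. Of the 22 hepatocyte markers, 5 could be named on the array (TAT, HNF4A, F13B, CP and GC), and the 8 cord-labelled arrays were well above background for each of the 5, whereas 0 of the 6 liver-labelled arrays were. Of the 15 markers of cord stroma, 3 could be named (COL1A1, LUM and VCAN), and the cord-labelled minus liver-labelled differences were -6.49, -5.62 and -6.45 on the log2 scale (limma, adjusted p = 6.3e-14, 5.6e-14 and 1.4e-14). The muscle arrays carried TCAP, the only muscle marker of 20 that could be named, with all 8 above every array of the other tissues. For endothelium, EGFL7 was the only named marker of 10, and no marker of smooth muscle, amnion, erythroid cells, macrophages, neutrophils or adipocytes could be named, so blood and epithelium in the samples were not assessed. In bulk tissue, fewer cells of a type and less RNA per cell cannot be told apart.

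Between 13708 and 17440 probes were well above background on each of the 16 arrays, and no spot was saturated. The correlation over probes was 0.950 to 0.982 between muscle arrays, 0.917 to 0.975 between cord-labelled arrays and 0.641 to 0.727 between the tissues. The 16 arrays lay on 5 slides and no slide held both tissues, so slide and tissue cannot be told apart. Of 16184 probes tested, 3906 (24.1%) were higher and 3364 (20.8%) lower in muscle at an adjusted p under 0.05 and a difference of at least 2-fold, which is the meaning of called below (44.9% in either direction). At the adjusted p alone 35.3% were higher and 28.7% lower, 64% in all. Scaling the arrays to their spike-in controls in place of the 75th percentile shifted the median log2 difference of the probes tested from 0.11 to -1.19. The counts became 1217 higher and 7209 lower. The spike-ins lay 2.53 to 3.73 above the 75th percentile (log2) on the muscle arrays. On the cord-labelled arrays they lay at -0.90 for ABW replicate 4, 0.50 for LBW replicate 4 and 2.03 to 2.99 for the others. Spike-in scaling without these outlying arrays was not tested. Gene symbols were at hand for 1645 of the tested genes, all of them picked by the study for an effect of birth weight, and of these 349 were higher and 348 lower in muscle (21.2% each). The values below are log2 signals of a probe relative to the 75th percentile of its array and are compared between arrays, never between probes.

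Genes of the contractile apparatus, the sarcolemma and the motor endplate separated the tissues. All 12 named genes were higher in muscle, with a median difference of 7.12 on the log2 scale against 0.11 over all probes, and in each of the 12 the lowest muscle array lay above the highest cord-labelled array. Such a separation was found for 18.7% of all probes. With normexp background correction 11 of the 12 were called and the median of the list was 5.68. Under spike-in scaling 9 of the 12 were called, and ACHE (1.24), DMD (0.71) and COLQ (0.06) were not. TNNC1, the calcium-binding subunit of troponin in slow and cardiac muscle, lay between 5.26 and 7.25 in muscle (median 6.50) and between -4.36 and -2.87 on the cord-labelled arrays (median -3.47). This was a difference of 9.94 ± 0.239 (SE, n = 8 and 8), or 985-fold (adjusted p = 1.1e-15). TCAP, which caps titin at the Z-disc, ranged from 8.31 to 9.06 in muscle (median 8.55) and from -1.51 to 1.17 on the cord-labelled arrays (median 0.45), a difference of 8.36 ± 0.275. ANKRD23, a titin-binding ankyrin repeat protein, differed by 6.73 ± 0.273, and its lowest muscle array was at 7.50 against a highest cord-labelled array of 1.67.

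CACNB1, the beta subunit of the calcium channel that couples excitation to contraction, lay between 4.90 and 5.85 in muscle and between -4.29 and -2.90 on the cord-labelled arrays, a difference of 8.87 ± 0.176. FHL1, a LIM-domain protein of muscle, differed by 8.64 ± 0.217 and CAP2, an actin-binding protein, by 9.19 ± 0.216. CAP2 was well above background on 3 of 8 cord-labelled arrays, and its difference was 6.62 with normexp. SSPN (sarcospan) and DMD (dystrophin) belong to the complex that links the cytoskeleton to the matrix. SSPN was 7.44 ± 0.215 higher in muscle. It was well above background on 5 of 8 cord-labelled arrays, and its difference was 4.73 with normexp. DMD was 2.01 ± 0.208 higher, with arrays from 2.15 to 3.13 in muscle and from -0.39 to 1.18 on the cord-labelled side. MYH6, an alpha myosin heavy chain best known from the heart, was 6.80 ± 0.370 higher in muscle, and its probe may share signal with other myosins of near-identical sequence. ACHE, the acetylcholinesterase of the endplate, was 2.54 ± 0.250 higher. APEG1 and COLQ, which anchors acetylcholinesterase, completed the list at 3.85 ± 0.209 and 1.35 ± 0.207. Of the 12 genes, 5 were called lower and 1 higher on the cord-labelled than on the liver-labelled arrays. Over all probes the shares were 21.2% lower and 25% higher. Among the 5 were FHL1, CAP2, SSPN and CACNB1, with differences of -4.99, -5.67, -5.79 and -2.78.

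**Figure D1:**
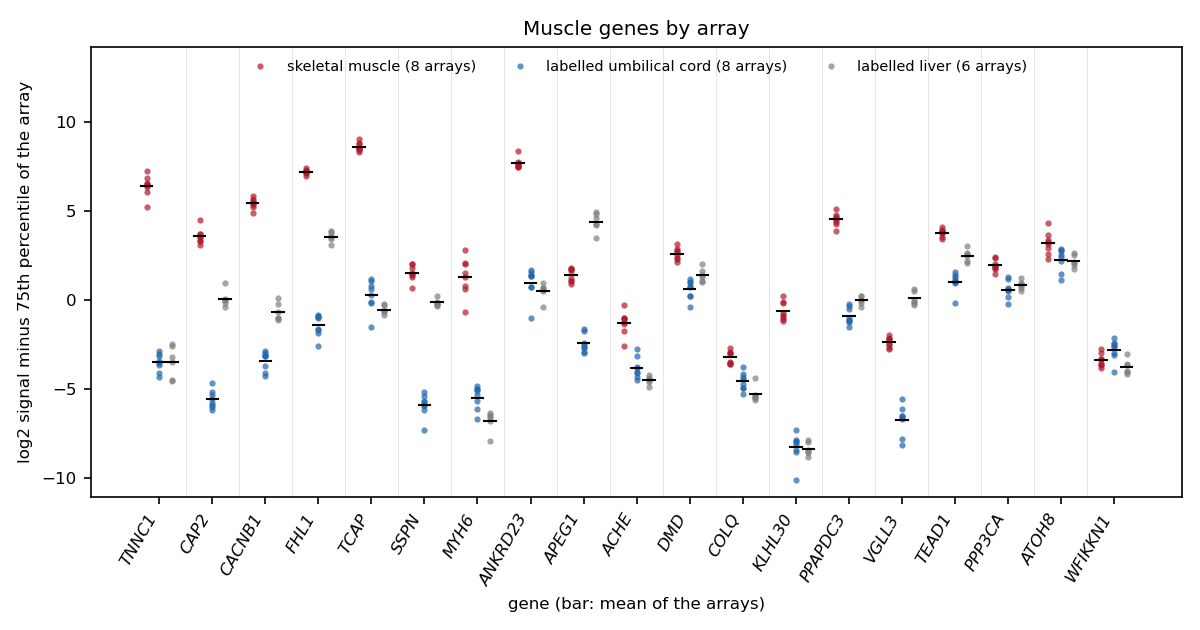
Level of the 12 genes of the contractile apparatus, sarcolemma and endplate and of 7 of the 8 genes of muscle transcription and signalling, each in order of its difference; points are arrays, the vertical axis is the log2 signal minus the 75th percentile of the array, and black bars are means of 8, 8 and 6 arrays. The muscle points lie above all cord-labelled points for the 12 genes at the left. The grey liver-labelled points lie between them for genes such as FHL1, CAP2, SSPN and CACNB1.

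Regulators of the muscle lineage followed the same order. Of 8 genes, 6 were higher in muscle and the 8 muscle arrays lay above the 8 cord-labelled arrays for each of the 6. Over all probes 24.1% were called higher. KLHL30, a kelch protein, ranged from -1.17 to 0.20 in muscle and was not well above background on any cord-labelled array, at least 58.5-fold higher. VGLL3 and TEAD1 act as cofactor and DNA-binding partner in muscle gene control, and they were 4.38 ± 0.280 and 2.74 ± 0.179 higher. PPAPDC3, a nuclear envelope protein, was 5.44 ± 0.197 higher, and PPP3CA, the catalytic subunit of calcineurin, 1.36 ± 0.184 higher. ATOH8 and WFIKKN1 differed by 0.93 and -0.58, within 2-fold.

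Fuel use divided the list. CPT1B, the muscle form of the carnitine palmitoyltransferase that admits fatty acids to mitochondria, lay between 5.32 and 6.28 in muscle and between -3.44 and -1.93 on the cord-labelled arrays, 8.54 ± 0.193 apart. SLC2A4, the glucose transporter that insulin moves to the surface, lay between 2.03 and 3.15 in muscle and between -4.01 and -3.18 on the cord-labelled arrays, a difference of 6.12 ± 0.180 or 69.3-fold. SLC25A4, the mitochondrial carrier that exchanges ADP for ATP, was 4.61 ± 0.256 higher. IP6K3, an inositol hexakisphosphate kinase, was 6.11 ± 0.290 higher and PDK2, which inhibits pyruvate dehydrogenase, 1.78 ± 0.176 higher. Of the 10 genes, 6 were higher and 1 lower, beside 24.1% and 20.8% of all probes. The median of the 10 was 1.44 and fell to 0.15 under spike-in scaling.

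The arrays of LDHA, CKB and PGK1 overlapped between the tissues. Glycolytic LDHA differed by 0.82 ± 0.265 and its arrays overlapped, and CKB, the brain form of creatine kinase, differed by -0.52 ± 0.448 (adjusted p = 0.324). PGK1 was called at 1.099 ± 0.233, but 1 cord-labelled array reached -2.99 against a range of -4.09 to -2.74 in muscle, and spike-in scaling turned its sign. OGDHL was placed in this list as a relative of oxoglutarate dehydrogenase, and it went the other way: -7.99 to -4.63 in muscle against 1.54 to 3.57 on the cord-labelled arrays, a difference of -9.04 ± 0.386. It was well above background on 3 of 8 muscle arrays, and its difference was -5.82 with normexp.

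Named genes outside the lists were among those with the largest differences. C8orf22 and A2BP1, the latter an RNA splicing factor of muscle and brain, were well above background on all 8 muscle arrays and on none of the cord-labelled ones. Their levels were at least 631-fold and at least 476-fold higher in muscle. Probes without a symbol here went further: those for NM_003063 and NM_001231 were 15.34 ± 0.771 and 15.13 ± 0.624 higher in muscle. Each was well above background on 1 of 8 cord-labelled arrays. Those for AY635465 and NM_002216 differed by -12.2 ± 0.746 and -11.96 ± 0.679, and were well above background on 5 and 3 of 8 muscle arrays. With normexp background correction these differences were 10.95, 10.46, -9.44 and -8.56.

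Secreted plasma proteins gave the reverse picture. All 16 named genes were lower in muscle than on the cord-labelled arrays, with a median difference of -7.39, and for all 16 every cord-labelled array lay above every muscle array. As 5 of the 16 were not well above background on any muscle array, the median was -6.04 with these at their bound, and it was -4.03 with normexp background correction, where 15 were called. Over all probes 20.8% were called lower, and 15.1% had every cord-labelled array above every muscle array. C2, a protease of the complement cascade, was well above background on every array. It lay between -3.65 and -1.12 in muscle and between 5.75 and 6.81 on the cord-labelled arrays, a difference of -8.41 ± 0.307. C4BPB, the beta chain of the complement inhibitor C4b-binding protein, differed by -9.34 ± 0.608, but its cord-labelled arrays spread from -1.54 to 3.71. It was well above background on 1 of 8 muscle arrays, and its difference was -4.92 with normexp. CFHR2 and CFHR3, complement regulators with probes that may also bind transcripts of relatives, were not well above background on any muscle array and were at least 49.5-fold and at least 6.02-fold higher on the cord-labelled arrays.

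Lipoprotein genes behaved alike. APOA5, which promotes the lipolysis of triglyceride-rich particles, lay between -6.10 and -3.35 in muscle and between 2.69 and 5.47 on the cord-labelled arrays, and LIPC, the hepatic lipase, between -6.60 and -3.12 and between 0.90 and 4.97. Their differences were -9.06 ± 0.406 and -9.17 ± 0.470. GC (vitamin D-binding protein), CP (ceruloplasmin, the copper carrier) and F13B (the carrier subunit of factor XIII) were not well above background on any muscle array, so the cord-labelled level was at least 28.2-fold, at least 58.0-fold and at least 21.6-fold higher. LEAP2, a peptide antagonist of the ghrelin receptor, differed by -6.12 ± 0.285.

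**Figure D2:**
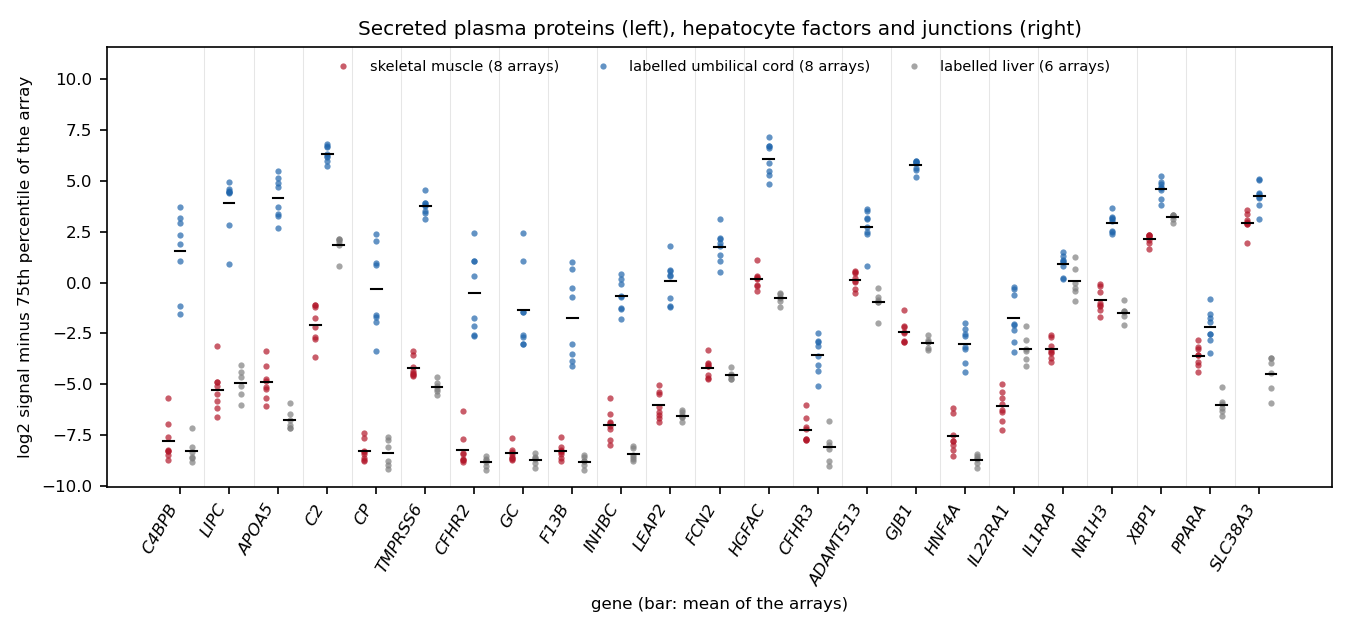
Level of 15 of the 16 secreted plasma protein genes (left) and 8 genes of the list of hepatocyte transcription factors and junctions (right), in order of their difference; points are arrays, the vertical axis is the log2 signal minus the 75th percentile of the array, and black bars are means of 8, 8 and 6 arrays. The cord-labelled points lie above the muscle points for all 15 plasma protein genes shown, and the liver-labelled points lie near the muscle points for most of them.

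The mean level of the 16 plasma protein genes ran from -5.67 to -4.77 over the muscle arrays, from 1.005 to 2.44 over the cord-labelled arrays and from -5.73 to -5.21 over the liver-labelled arrays. For the 12 contractile genes the means ran from 3.14 to 3.69, from -3.30 to -2.46 and from -1.20 to -0.63. All 16 plasma protein genes were also called higher on the cord-labelled than on the liver-labelled arrays, as were 25% of all probes, while 21.2% were called lower. No muscle array approached the cord-labelled level of plasma protein genes, and no cord-labelled array approached the muscle level of contractile genes.

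All 8 genes of the list of hepatocyte transcription factors and junctions were lower in muscle (median -4.01, or -2.21 with normexp, where 7 were called). Over all probes 20.8% were called lower. The list holds 4 transcription factors (HNF4A, NR1H3, XBP1 and PPARA), a connexin (GJB1), a transporter (SLC38A3) and the receptor chains IL22RA1 and IL1RAP. HNF4A, the nuclear receptor that maintains the hepatocyte programme, was not well above background on any muscle or liver-labelled array and had a median of -2.90 on the cord-labelled arrays, at least 8.71-fold above muscle. GJB1 (connexin 32), the gap junction protein between hepatocytes, lay between -2.94 and -1.35 in muscle and between 5.18 and 6.01 on the cord-labelled arrays, a difference of -8.18 ± 0.184. NR1H3 (the liver X receptor alpha) differed by -3.82 ± 0.177 and XBP1, a factor of the unfolded protein response, by -2.45 ± 0.167. PPARA, which controls fatty acid oxidation in liver and muscle alike, differed by -1.42 ± 0.290 and its arrays overlapped. SLC38A3, a glutamine transporter, was high on both, at 1.95 to 3.59 in muscle and 3.13 to 5.11 on the cord-labelled arrays, against -5.92 to -3.72 on the liver-labelled arrays.

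Of 27 genes of amino acid and nitrogen metabolism, 20 were lower and 2 higher in muscle, beside 20.8% and 24.1% of all probes. NAGS, which makes the activator of the urea cycle, lay between -7.73 and -5.12 in muscle and between -0.34 and 2.34 on the cord-labelled arrays, a difference of -7.52 ± 0.283. TAT, which starts tyrosine breakdown, differed by -6.74 ± 0.253, CDO1 of cysteine breakdown by -7.36 ± 0.323, and HAAO of the kynurenine pathway by -6.17 ± 0.233. BHMT2, a methyltransferase of methionine synthesis, differed by -5.95 ± 0.254. The exceptions were AGA, a lysosomal amidase, at 1.91 ± 0.174, and GPT2, the mitochondrial alanine aminotransferase, at 1.44 ± 0.193. GPT2 lay between 1.76 and 3.18 in muscle and between 0.31 and 1.81 on the cord-labelled arrays, against -5.90 to -3.63 on the liver-labelled arrays. Under spike-in scaling neither was called.

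Of 28 genes of lipid, xenobiotic and steroid metabolism, 23 were lower and 1 higher in muscle, beside 20.8% and 24.1% of all probes. The median of the 28 was -2.85. With normexp 17 were lower and the median was -1.61. UGT1A6, a glucuronosyltransferase, was the most extreme at -10.36 ± 0.5257. Its muscle arrays spread from -7.83 to -2.31 and its cord-labelled arrays from 3.79 to 6.28, and since the UGT1A enzymes share their last exons, the probe may read other members. RDH16, a retinol dehydrogenase, differed by -8.97 ± 0.298, UGT2B11 by -8.06 ± 0.480 and CYP4A22, of the fatty acid hydroxylases, by -8.20 ± 0.263. ECHS1 of mitochondrial beta-oxidation lay between 3.51 and 5.28 in muscle and between 6.25 and 6.76 on the cord-labelled arrays, a difference of -2.29 ± 0.179. The 1 gene that was higher in muscle was ELOVL3, a fatty acid elongase, at 2.31 ± 0.328, and its arrays overlapped.

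Of 12 carbohydrate genes, 5 were lower and 3 higher in muscle, beside 20.8% and 24.1% of all probes. With normexp 4 of the 12 were lower and 0 higher. The lower ones included PC, the pyruvate carboxylase that opens gluconeogenesis, at -1.04 to 0.21 in muscle against 4.38 to 5.82 on the cord-labelled arrays, a difference of -5.37 ± 0.207. GLYCTK (glycerate kinase) and SHPK (sedoheptulokinase) differed by -5.79 ± 0.231 and -5.08 ± 0.207. The higher ones, GNPDA2, PGK1 and RPIA, differed by 1.06 to 1.12, and all 3 turned sign under spike-in scaling.

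The secretory pathway was lower in muscle in 12 of 20 genes (median -1.38), beside 20.8% of all probes. SEC61B, of the channel through which proteins enter the endoplasmic reticulum, lay between 0.34 and 1.14 in muscle and between 3.34 and 5.02 on the cord-labelled arrays, a difference of -3.46 ± 0.198. PDIA3, a disulphide isomerase for glycoproteins, differed by -3.00 ± 0.176, FKBP11 by -4.39 ± 0.253 and SEC16B, of the exit sites of the reticulum, by -6.15 ± 0.299. The remaining 8 genes were within 2-fold or did not pass the test. SEC61B, PDIA3 and FKBP11 were also 1.17, 1.13 and 1.44 higher on the cord-labelled than on the liver-labelled arrays.

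Collagens and other matrix proteins were higher in muscle than on the arrays labelled umbilical cord in 9 of 15 genes and lower in 3 (median 1.49). Under spike-in scaling 3 were higher and 3 lower (median 0.20). Over all probes 24.1% were called higher and 20.8% lower. COL1A1, the main fibrillar collagen, lay between 0.59 and 2.70 in muscle and between -2.84 and -0.66 on the cord-labelled arrays, a difference of 3.39 ± 0.286. On the liver-labelled arrays it lay between 4.53 and 5.12. LUM (lumican), a proteoglycan that orders collagen fibrils, was 1.49 ± 0.248 higher in muscle. VCAN (versican) did not differ beyond the spread between arrays, at 0.42 ± 0.253 (adjusted p = 0.156), while the liver-labelled arrays lay above both tissues from 4.73 to 5.49. COL4A4, a collagen of basement membranes, was 5.25 ± 0.329 higher in muscle, GPC4 (glypican 4) 4.92 ± 0.164 higher, and LAMB2, the laminin chain concentrated at the neuromuscular junction, 2.51 ± 0.221 higher.

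The matrix genes that ran against this included 1 that hepatocytes secrete into plasma. FN1 (fibronectin) lay between 0.03 and 2.83 in muscle and between 4.99 and 6.27 on the cord-labelled arrays, a difference of -4.32 ± 0.291. COL27A1 and COL9A2, both cartilage-type collagens, differed by -2.91 ± 0.226 and -1.49 ± 0.262. Of 11 tested enzymes that modify matrix, 2 were higher and 4 lower, beside 24.1% and 20.8% of all probes. Both higher calls were lost under spike-in scaling (7 lower) and with normexp (3 lower). QSOX1, a secreted sulfhydryl oxidase, was the largest at -3.28 ± 0.172.

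**Figure D3:**
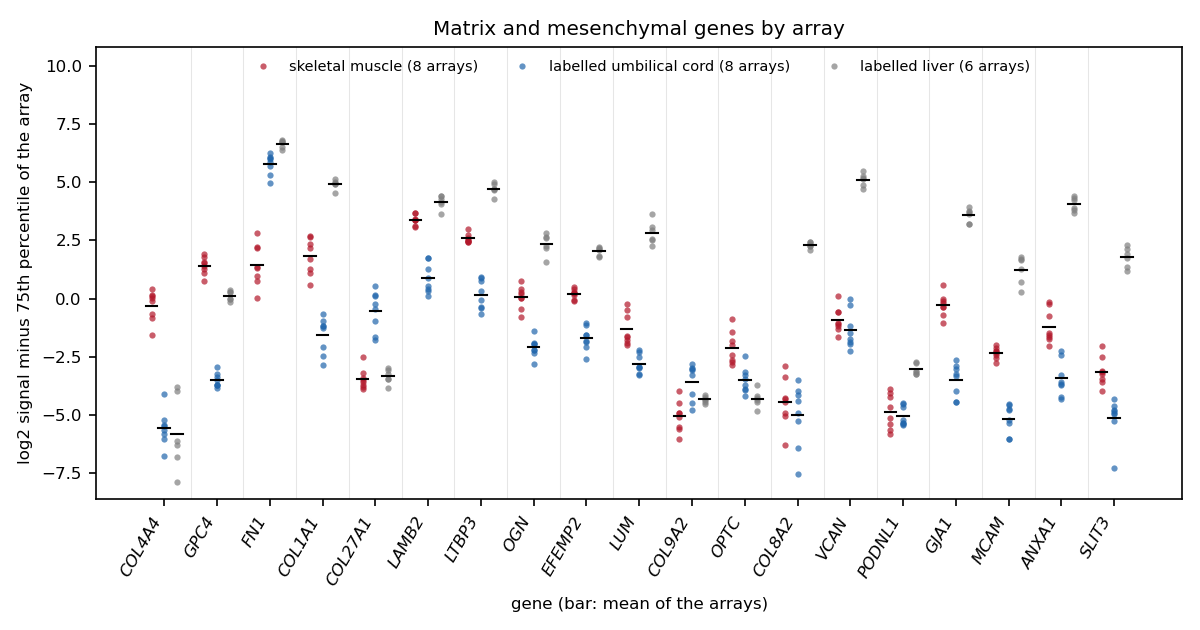
Level of 15 genes of collagens and matrix in order of their difference, followed by GJA1, MCAM, ANXA1 and SLIT3 of the mesenchymal and vessel lists; points are arrays, the vertical axis is the log2 signal minus the 75th percentile of the array, and black bars are means of 8, 8 and 6 arrays. For COL1A1, LUM and VCAN the liver-labelled points lie highest, and the cord-labelled points lie below the muscle points for COL1A1 and LUM.

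Mesenchymal and vessel genes were split in the same way. Of 23 mesenchymal genes, 10 were higher and 7 lower in muscle, beside 24.1% and 20.8% of all probes. The counts of this list became 3 and 12 under spike-in scaling and 5 and 5 with normexp. GJA1 (connexin 43) was 3.22 ± 0.255 higher and LPAR1, a receptor for lysophosphatidic acid, 3.37 ± 0.251 higher. SALL1, a zinc finger factor, was not well above background on any muscle array and was at least 17.0-fold higher on the cord-labelled arrays. Of 12 vessel genes, 6 were higher and 2 lower, with a median of 1.098 that became -0.20 under spike-in scaling. MCAM of endothelium and pericytes was 2.83 ± 0.218 higher in muscle, APLN (apelin) 3.78 ± 0.301 and GATA2 2.50 ± 0.212. The marker EGFL7 differed by 0.83 ± 0.191, within 2-fold. VCAM1, the adhesion molecule that binds leukocytes, ran the other way at -4.07 ± 0.199, with muscle arrays from -2.95 to -1.64 and cord-labelled arrays from 1.21 to 2.79.

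Of 16 immune genes tested, 7 were lower and 1 higher in muscle, beside 20.8% and 24.1% of all probes, and 8 were not called. With normexp 5 were lower, and under spike-in scaling 10. IL1R2, the decoy receptor for interleukin 1, lay between -8.21 and -4.98 in muscle, where 1 of 8 arrays was well above background, and between 2.41 and 5.02 on the cord-labelled arrays, a difference of -10.52 ± 0.389. CD163L1, a scavenger receptor of macrophages, differed by -4.28 ± 0.401 with overlapping arrays. WAS, the actin regulator of blood cells, was at least 4.77-fold and KLRC2, a receptor of natural killer cells, at least 3.07-fold higher on the cord-labelled arrays. The exception was IL15RA at 2.34 ± 0.349, also with overlapping arrays.

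**Figure D4:**
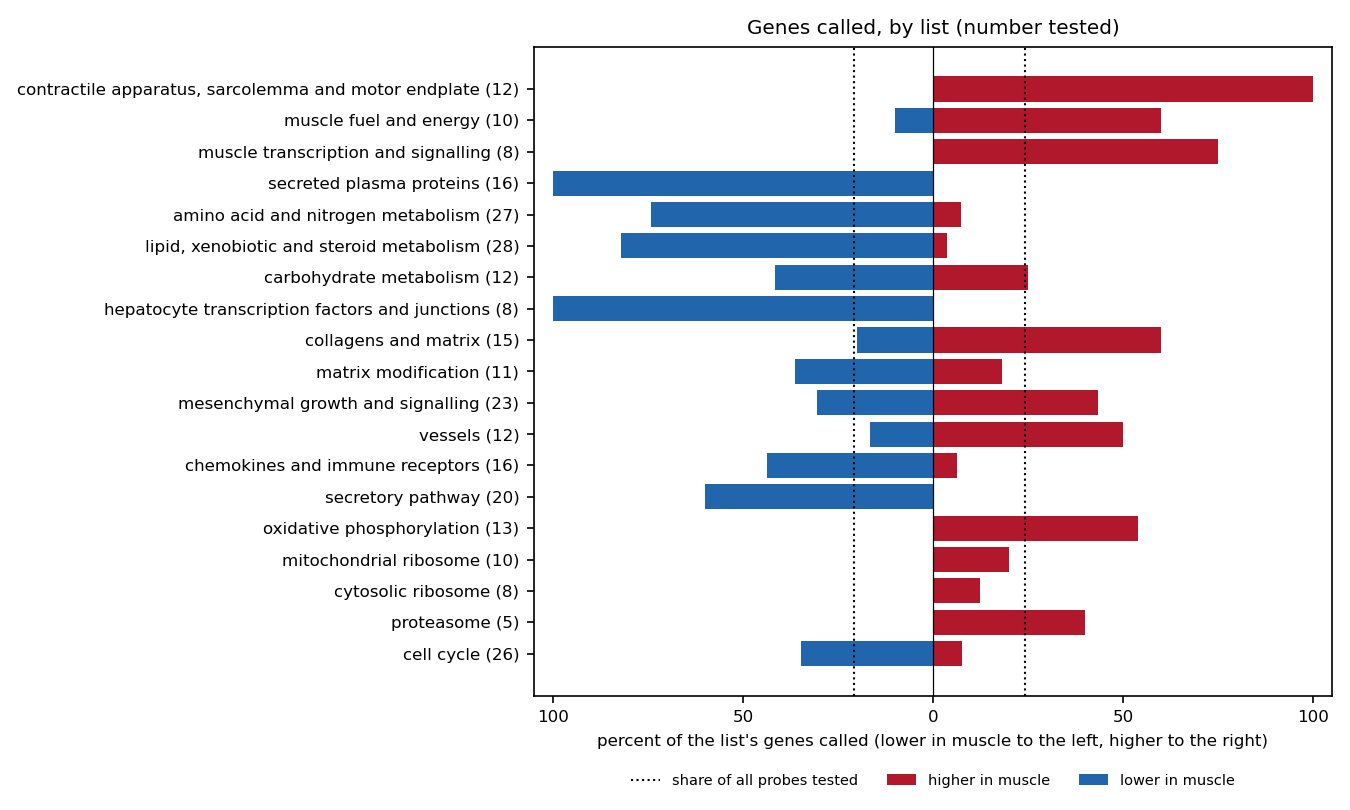
Share of the tested genes of each list that were called higher (right, red) or lower (left, blue) in muscle than on the cord-labelled arrays, in percent; the number tested is in brackets and dotted lines mark the shares over all 16184 probes, 24.1% higher and 20.8% lower. The contractile list reaches 100% to the right and the plasma protein list and the list of hepatocyte transcription factors and junctions 100% to the left.

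Genes of the respiratory chain were higher in muscle in 7 of 13, beside 24.1% of all probes. The differences of the 13 were much smaller than those of the contractile genes (median 1.05). CYCS (cytochrome c) lay between 4.58 and 6.42 in muscle and between 2.10 and 3.84 on the cord-labelled arrays, a difference of 2.23 ± 0.254. NDUFB4, NDUFV2 and NDUFB6 of complex I were 1.99 ± 0.157, 1.85 ± 0.213 and 1.43 ± 0.196 higher. Under spike-in scaling the median of the 13 genes turned to -0.24, against -1.19 over all probes, and the 7 calls were lost. With ABW arrays alone 5 were higher and 3 lower (median 0.45), and with LBW arrays alone 11 were higher (median 1.80). The mean level of the list ran from 0.66 to 2.20 over the muscle arrays and from -0.95 to 1.74 over the cord-labelled arrays, and these ranges overlapped.

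Of 10 genes of the mitochondrial ribosome 2 were higher (MRPS10 at 1.43 ± 0.141 and MRPS6 at 1.04 ± 0.172), of 8 cytosolic ribosomal proteins 1 (RPL10 at 1.30 ± 0.191) and of 5 proteasome genes 2 (PSMC6 at 1.55 ± 0.298 and PSMD14 at 1.23 ± 0.203). The counts of both ribosome lists lay below the 24.1% of all probes called higher. Under spike-in scaling these 5 calls were lost, 5 mitochondrial and 2 cytosolic ribosomal genes were lower, and MRPS6 and PSMD14 turned sign. The mean of the cytosolic ribosomal genes ran from 1.80 to 2.39 over the muscle arrays and from 0.47 to 3.32 over the cord-labelled arrays. Ribosomal protein genes have many near-identical copies in primate genomes, so their probes may read more than the named gene.

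Of 26 cell cycle genes tested, 9 were lower and 2 higher in muscle (median -0.38), beside 20.8% and 24.1% of all probes. With normexp background correction the counts of this list were 1 lower and 1 higher. Under spike-in scaling 15 were lower (median -1.68) and both higher calls were lost. CKS2, a cyclin kinase subunit, lay between -5.37 and -3.13 in muscle and between -2.10 and 0.04 on the cord-labelled arrays, a difference of -3.13 ± 0.284. CDKN3, a phosphatase of the cycle kinases, ran the other way at 2.23 ± 0.292.

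The difference between the tissues was then compared between the birth weight groups. The interaction of tissue and birth weight passed an adjusted p of 0.05 for 123 of 16184 probes (0.76%), against 1835 at an unadjusted p under 0.05. The calls depended on the processing, and 10 probes passed with normexp. By limma 0 passed under spike-in scaling (167 unadjusted) and 0 with the replicate number as a block (1699 unadjusted). Under spike-in scaling the levels of the outlying cord-labelled arrays enter the values of every probe. The 0 there cannot tell an absent interaction from a missed one. In the main fit the interaction was positive for 119 and negative for 4, where positive means that muscle minus cord-labelled was greater in LBW than in ABW. Over the 119 probes the median LBW minus ABW difference was -1.87 on the cord-labelled arrays and 0.72 in muscle. Among the genes with a symbol, 46 of 1645 (2.8%) had such an interaction, and these genes had been picked by the study for a birth weight effect in the same samples.

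EHHADH of peroxisomal beta-oxidation had an interaction of 4.88 ± 0.698 (SE, limma adjusted p = 0.00542). Its mean was -8.53 in muscle of ABW and -8.52 in muscle of LBW neonates, and it was not well above background on any muscle array. On the cord-labelled arrays its mean was -4.19 and -1.83 on the 2 slides of ABW samples and -7.88 for LBW. ACMSD of tryptophan breakdown (4.01 ± 0.630) had the same order on the cord-labelled arrays, as had F13B (3.73 ± 0.518) and KYNU (2.95 ± 0.619). CP had an interaction of 3.49 ± 0.629, and its ABW slides lay at 1.69 and 1.43 and its LBW arrays at -2.17 on average. None of these 5 genes was well above background on any muscle array, so their muscle values are bounds. The plasma protein genes C2 and APOA5 had interactions of -1.83 and 0.01, which did not pass the test.

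Of the 13 genes of the respiratory chain, 4 passed the interaction test: COX7B (3.66 ± 0.529), NDUFC1 (3.73 ± 0.772), NDUFB1 (3.00 ± 0.534) and ATP5C1 (2.65 ± 0.492), of which ATP5C1 alone was called between the tissues. The test was passed by 0.76% of all probes. Of the genes with a symbol, all picked by the study for a birth weight effect, 2.8% passed. COX7B lay between -2.43 and -1.29 in muscle. On the cord-labelled arrays it was at -0.50, 0.01, 1.16 and 1.54 for ABW and between -3.97 and -3.22 for LBW, so that the muscle values fell between the 2 birth weight groups of the other tissue. MRPL1 of the mitochondrial ribosome and RPS7 of the cytosolic ribosome had interactions of 3.11 ± 0.527 and 2.27 ± 0.434.

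**Figure D5:**
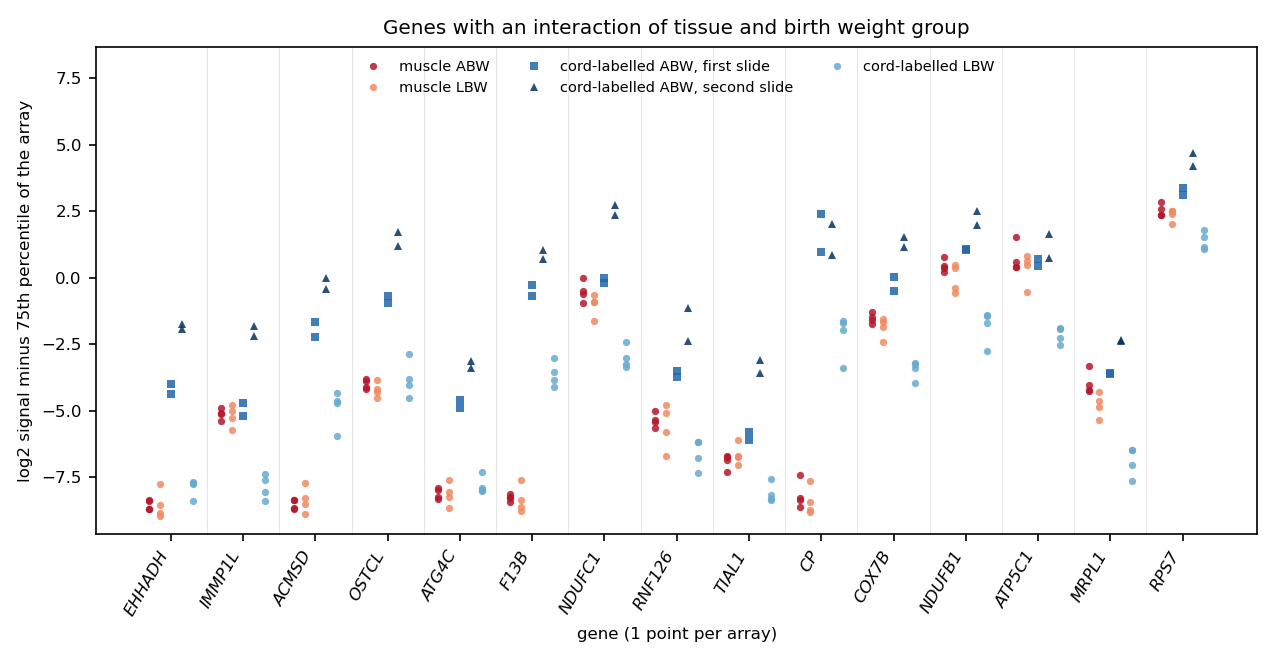
Level of 9 named genes with large interactions of tissue and birth weight and of 6 members of the gene lists that passed the same test; each point is an array, the vertical axis is the log2 signal minus the 75th percentile of the array, and the cord-labelled ABW arrays are split by slide. The cord-labelled LBW points lie below the cord-labelled ABW points of both slides for every gene shown, all of them chosen for their interaction.

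Levels of these probes were also compared between slides. The 4 cord-labelled LBW arrays shared 1 slide and the 4 ABW arrays lay on 2 others, 1 of which had been read with another version of the extraction software and showed net signals on negative controls of 16.7 to 17.1, against 30.5 to 35.4 on the other 14 arrays. Of the 119 probes with a positive interaction, the slide of the other software version was above the first ABW slide for 88. The median of that difference over the 119 was 0.61. Both ABW slides lay above the cord-labelled LBW arrays for all 119, which were chosen for their interaction, and the first ABW slide did so by a median of 1.66. Without the 2 arrays of the other software version the interaction was called for 59 probes, 43 of them among the 123. It was called for 37 without replicate 3 of muscle ABW and for 432 without replicate 1 of the cord-labelled LBW arrays. Birth weight group and slide cannot be told apart within either tissue.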

How the data were processed

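Total RNA of each tissue was labelled with Cy3 from oligo-dT primed cDNA and hybridised to single-colour Agilent rhesus macaque arrays of 20217 probes, each spotted in 2 copies. The deposited scanner files hold spot intensity values that the authors obtained with Agilent Feature Extraction, version 10.1.1.1, or 10.5.1.1 for 1 slide, background-subtracted and not scaled between arrays. The deposited series table holds log2 values that the authors had centred on the median of each tissue, so it cannot compare tissues and was not used for the results.

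The mean processed signal of the 2 spots was taken as log2 minus the 75th percentile of the array, as in the methods of the study. A probe was kept where at least 75% of the arrays in 1 or more of the 4 groups had it well above background. Tissue was tested with birth weight group as a covariate in limma 3.58.1 (R 4.3.3), with Benjamini-Hochberg adjustment over all probes kept, and called at an adjusted p under 0.05 and a difference of at least 2-fold. A second fit held the interaction. Where a probe was not well above background on any array of a tissue, a bound is given: the bright tissue's mean against, per dim array, the higher of its lowest detected signal and the probe's own. Plain normexp used median signals (offset 50), since the scanner files give median signals. The fits were tested on simulated data.

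Gene symbols came from a supplementary file of the study, which holds genes picked for a birth weight effect in these samples. It named 1730 probes (1657 genes), while the RefSeq table matched 0 of the 19376 accessions of the array. The members and lists were chosen with earlier results of these data known, and the lists were written after the named genes were seen, so they are not independent evidence. Named were the called genes with the 4 largest differences in the main direction of a list and up to 4 in the other (all members in lists of up to 10), the 10 largest differences without overlap in each direction and the 10 largest interactions. Genes chosen beyond this rule, such as APEG1 and COLQ, were named after their values were seen. Results of 4 genes are not reported here.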

Additional observations from a re-analysis of the deposited data

Results flagged for a closer look

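Of 320 groups of 8 arrays (160 named genes in 2 tissues), 25 held an array whose gap to its nearest neighbour exceeded Dixon's critical share of the group's range, and chance gives about 1 in 20. The values are log2 signals minus the 75th percentile of the array. In muscle, the highest array stood apart for CAP2 at 4.493 (muscle LBW replicate 1, nearest 3.741), CYP4A22 at 0.3518 (muscle LBW replicate 3, nearest -0.7763), RPL30 at -3.316 (muscle LBW replicate 1, nearest -3.723), GC at -7.634 (muscle LBW replicate 3, nearest -8.236), ANKRD23 at 8.395 (muscle LBW replicate 3, nearest 7.795), CFHR2 at -6.336 (muscle ABW replicate 2, nearest -7.704) and ADH6 at -2.405 (muscle LBW replicate 3, nearest -3.471). In muscle, the lowest array stood apart for SLC38A3 at 1.953 (muscle ABW replicate 1, nearest 2.86), KLRC2 at -8.824 (muscle LBW replicate 4, nearest -7.645), MRPL15 at 1.537 (muscle LBW replicate 1, nearest 2.447), MRPL47 at -3.949 (muscle LBW replicate 3, nearest -3.4), PSMC6 at -1.664 (muscle LBW replicate 3, nearest -0.489) and PSMG2 at 0.3199 (muscle LBW replicate 3, nearest 0.7125). On the cord-labelled arrays, the highest array stood apart for PGK1 at -2.992 (cord-labelled ABW replicate 4, nearest -4.08), CKB at 2.167 (cord-labelled LBW replicate 1, nearest -0.1069), QSOX1 at 3.99 (cord-labelled LBW replicate 4, nearest 3.252) and RXFP1 at -1.591 (cord-labelled LBW replicate 1, nearest -2.954). On the cord-labelled arrays, the lowest array stood apart for TEAD1 at -0.1442 (cord-labelled ABW replicate 3, nearest 0.9659), KLHL30 at -10.12 (cord-labelled ABW replicate 4, nearest -8.564), ELOVL3 at -7.485 (cord-labelled LBW replicate 2, nearest -5.854), RPIA at -1.635 (cord-labelled ABW replicate 3, nearest -0.9019), PCOLCE2 at 0.4034 (cord-labelled LBW replicate 1, nearest 1.222), CD163L1 at -4.319 (cord-labelled LBW replicate 1, nearest -2.191), ANKRD23 at -0.9907 (cord-labelled ABW replicate 3, nearest 0.7304) and CENPE at -6.117 (cord-labelled LBW replicate 2, nearest -5.026).

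The difference between muscle and cord-labelled arrays differed between the birth weight groups for 46 of the 1645 genes with a symbol, of which 20 are among those named in the text, some of them for the size of this effect (limma interaction term, adjusted p under 0.05). The interactions, as muscle minus cord-labelled in LBW minus the same in ABW on the log2 scale, were MRPL1 3.114, RPS7 2.265, F13B 3.73, CP 3.49, KYNU 2.95, ACMSD 4.012, EHHADH 4.885, IMMP1L 4.316, OSTCL 3.902, ATG4C 3.753, NDUFC1 3.726, RNF126 3.713, TIAL1 3.702, ATP5C1 2.655, CHPT1 2.393, COX7B 3.657, MSH6 1.803, NDUFB1 3.0, TALDO1 2.529 and TXNDC11 3.007. Slide and birth weight group cannot be told apart on the cord-labelled arrays.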

How the results depend on the processing

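Of the choices tried, spike-in scaling moved the tissue comparison most. With it 1217 probes were higher in muscle and 7209 lower, against 3906 and 3364. Median scaling gave 3901 and 3385, and quantile normalization 3857 and 3410. Scaling to the 75th percentile of probes well above background on all 16 arrays gave 3733 and 3498. Cord-labelled ABW replicate 4 and LBW replicate 4 had spike-in levels far below those of the other arrays. With normexp background correction 2444 were higher, and 2420 in a test against a 2-fold difference. Leaving out 1 array at a time gave 3849 to 3946 higher and 3324 to 3466 lower. The interaction (123 probes) was less stable. It was called for 10 probes with normexp, 77 with a floor for dim signals and 68 with a stricter filter. A two-way test without the moderation of limma, on the same 16 arrays with adjusted p, called 48. The study's own two-way test also took in the liver samples, and its methods state no adjustment. The interaction was called for 209 probes with array weights, 218 with all 22 arrays and 324 with slide as a random block. Without the slide of the other software version it was called for 59. By limma it was called for 0 probes with spike-in scaling (167 at an unadjusted p under 0.05). That 0 cannot tell an absent interaction from a missed one, since the outlying spike-in levels enter the values of every probe. Leaving out 1 array gave 37 to 432 probes, and 10 arrays moved the count by over 1.5 times. These were muscle ABW 1, 3 and 4 (68, 37 and 62), muscle LBW 2 and 3 (65 and 75), cord-labelled ABW 3 (77) and cord-labelled LBW 1 to 4 (432, 78, 65 and 77).

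The deviations of samples with the same replicate number correlated at -0.247 to 0.415, highest for the own number in 3 of 8. Such correlations cannot show whether the same number marks the same animal. With the number as a replicate block 3903 probes were higher and 3355 lower, and 0 had an interaction by limma (1699 at an unadjusted p under 0.05).

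The sign turned under spike-in scaling for PGK1 (-0.1942), GNPDA2 (-0.1732), RPIA (-0.2291), MRPS6 (-0.2496), PSMD14 (-0.06281), HOXB13 (-0.08195) and ATP5C1 (-0.1151). It turned with ABW arrays alone for NDUFC1 (-1.738), ATP5C1 (-0.1496) and NDUFB1 (-1.199), and with LBW arrays alone for TIAL1 (1.453) and COX7B (1.578). The cause was not tested. The comparison of isozyme pairs was not made, since no pair had both members named.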
